A study of Mus musculus with 6 samples.

Results

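The gene expression of 2 microarrays was set side by side: the array labelled SHT uterus and the array labelled mock ovary. They make up 2 of the 6 arrays of the study and were chosen by their measured values. Both carried patterning genes of the uterus and genes of stratified squamous epithelium. The markers used were Krt5, Krt14, Lor and S100a9, of which the first 2 were high on both arrays and the others on 1 each. The study gave female BALB/c mice Sheng-Hua-Tang (SHT, a herbal decoction of Chinese medicine) by mouth at 200 mg/kg on 7 consecutive days, or no treatment (mock), and measured brain, ovary and uterus on 1-colour Cy5 arrays, 1 array for each tissue and treatment. The labels give neither the age of the mice nor the number of animals behind an array, and they do not say whether the tissues of a treatment came from the same mice. With 1 array a side the comparison has no replicate check, so sizes are given and no test.

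The label mock ovary went against the profile of its array, and the label SHT uterus was borne out only in part. The array labelled mock ovary was low in ovary genes: the summed intensity of the 14 ovary genes measured was 4878 there, near the 5308 of its partner, and reached 151107 on another array of the study. The array labelled SHT uterus carried uterine patterning genes, but its squamous keratins were bright (Krt14 read 64964). All 6 genes listed for endometrial glands were dim on both arrays, so its tissue was not settled by these values. Labels and profiles disagreed elsewhere in the study too. The arrays with an ovary profile were labelled mock uterus and SHT brain. Those with a brain profile were labelled SHT ovary and mock brain. The 2 arrays compared keep the names on their labels here. A difference between them cannot be assigned to treatment, to tissue or to the stage of the cycle at which an animal was killed. All differences run from the array labelled mock ovary to the array labelled SHT uterus, and "higher" and "lower" refer to the latter.

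The lining of the lower reproductive tract of rodents is remade in each oestrous cycle. Oestrogen thickens its stratified squamous epithelium and drives the upper layers to cornify, that is, to fill with keratin and seal themselves with a cross-linked protein envelope and secreted lipids. When oestrogen falls the cornified cells are shed and neutrophils enter from the stroma, and under progesterone the surface cells can turn to mucus secretion.

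Of the 4 genes that served as markers, 2 were bright on both arrays and 2 on 1 of them each. Krt5, a keratin of basal squamous cells, read 36716 on the mock ovary array and 29948 on the SHT uterus array (each named by its label, and in this order below), against at most 250.2 on the 4 other arrays. Its partner Krt14 was at the top of the scale on the first (65579.8) and read 64964 on the second. Lor, which encodes loricrin, the main protein of the cornified envelope, read 55805 and then 522, while S100a9, a calcium-binding protein of neutrophils and of activated keratinocytes, read 1007 and then 37218. The intensity of Lor on the array labelled SHT uterus lay within the range of the 4 other arrays (303 to 2082), and that of S100a9 on the array labelled mock ovary was close to the highest of them (992). Both arrays carried the uterine patterning genes Hoxa10 (2805 and 6642, at most 1163 elsewhere) and Hoxa11 (1889.8 and 3669, at most 678 elsewhere). All 6 genes listed for endometrial glands were inside the background on both arrays. Hoxa13, which patterns the lower end of the tract, was inside it too (214 and 175), but read at most 2.32 on the 4 other arrays.

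Differences were taken on the log2 scale after each array was centred on its median probe, and a gene counted as higher or lower at a 2-fold difference or more, provided that its mean level on the 2 arrays was above that of the median probe. Of 10690 such genes, 679 were higher and 532 lower, together 11.3% of those measured (6.35% higher and 4.98% lower). The higher genes made up 56.1% of these calls, 83.0% with no centring of the arrays and 44.6% after a trend of the difference with level was removed. The median intensity was 179 for the mock ovary array and 224 for its partner, so a fold after centring differs from the plain ratio of the intensities given here by the quotient of these medians. The median difference over all these genes was 0.13 (log2). For comparison, 683 of 10762 genes (6.35%) passed the same limit between the 2 arrays with an ovary profile and 9 of 10586 (0.085%) between the 2 with a brain profile. The genes just inside the limit were Neu1 (1.002) and Ccn5 (-1.002), and those just outside it Rai14 (0.999) and Olfr1358 (-0.997). Of the 2138 dimmest of these genes 14.6% passed the limit, and of the 2138 brightest 7.72%.

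Where the dimmer reading of a gene was inside the background, taken as the 95th percentile of 529 olfactory receptor genes on that array (312 for the array labelled mock ovary and 318 for the array labelled SHT uterus), the fold was computed against that limit and is given as "at least". By that stricter count 9.07% of genes passed 2-fold, 4.86% higher and 4.21% lower. A reading above 65000 was counted as at the top of the scale. In whole tissue, fewer cells of a type and less RNA per cell cannot be told apart.

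**Figure D1:**
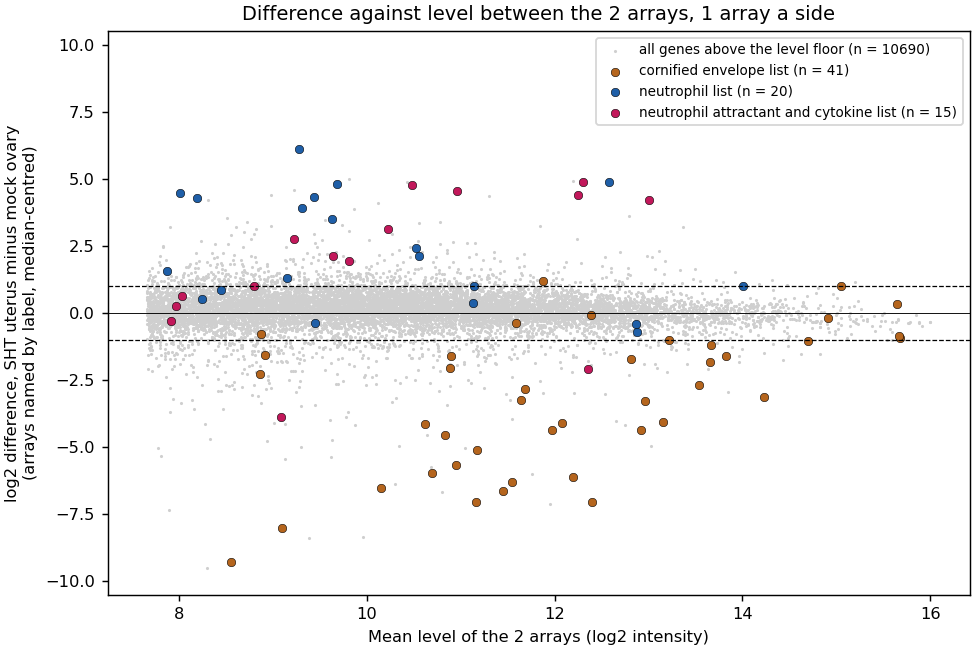
Each point is 1 gene above the level floor, placed by its mean log2 intensity on the 2 arrays (horizontal) and by its log2 difference, SHT uterus minus mock ovary as labelled (vertical). Dashed lines mark a 2-fold difference. Coloured points are 3 gene lists: cornified envelope genes reach the lowest differences, down to -9.27, and neutrophil and attractant genes lie mostly above the upper line.

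The 15 genes with the largest fold in each direction, with dim readings at the background limit, belonged mostly to 2 groups. Among the lower genes, 13 of 15 were on the cornification lists, and all 15 were brighter on the array labelled mock ovary than on any of the 4 arrays with another profile. Among the higher genes, 9 of 15 were on the neutrophil, attractant and antimicrobial lists, and 13 of 15 exceeded all of those 4 on the array labelled SHT uterus. Each of the 30 genes was measured by 1 probe. The lists and the genes were chosen with results of these data known, so these counts describe the 2 arrays and carry no further weight. Counts of list members below stand beside the shares over all genes, 6.35% higher and 4.98% lower.

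The cornified envelope list held many of the largest differences. Of 41 members above the level floor, 31 were lower and 2 higher, where 4.98% and 6.35% of all genes were, and the list median was -2.83 against 0.13 for all genes. Loricrin was 133-fold lower on the array labelled SHT uterus. Kprp, a proline-rich keratinocyte protein, read 41727 and then 373 and was 139-fold lower. Folds given as "at least" cannot be ranked against these: as read, Hrnr (-9.27) and Klk7 (-8.38) differed more on the log2 scale than Kprp (-7.12).

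Filaggrin, which binds keratin filaments into bundles, was lower as well, as were hornerin and repetin of its family. Flg, which encodes filaggrin, read 12645 and then 308, inside the background, and was at least 49.6-fold lower. Hrnr, its relative hornerin, read 8378 and 17.0 and was at least 32.8-fold lower. Rptn, repetin, of the same family, read 31302 and 1912 and was 20.4-fold lower, with a second probe at -4.10 on the log2 scale against -4.35 for the brighter one. Of the 3, Rptn alone stayed above the background limit on the array labelled SHT uterus.

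The late cornified envelope (Lce) genes, which are switched on in the last step before cells die, were lower in every case above the level floor. Of 14 Lce genes on the array 12 were above the level floor, and all 12 were lower, with log2 differences from -8.01 to -1.56. Lce3b read 24739 and 314 and was at least 97.0-fold lower, and Lce1b read 23715 and 221 and was at least 93.0-fold lower. Lce3f (23854 and 373) was 79.7-fold lower and Lce3e (35230.2 and 629) 69.9-fold lower. Lce1a1 was at least 45.8-fold lower, Lce1k at least 42.1-fold lower and Lce1c 34.8-fold lower. The genes of this family are close copies, and a probe may bind more than 1 of them.

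The small proline-rich (Sprr) proteins, which cross-link into the envelope in internal and stressed squamous epithelia, did not move as 1 group. Sprr3 read 16274 and 991 and was 20.5-fold lower, and Sprr1b (15979 and 1164) was 17.1-fold lower. Sprr1a, in contrast, read 29266 and 32414, and Ivl, which encodes the early envelope protein involucrin, 3138 and 3044, so that both were within 2-fold on the 2 arrays. Of 7 Sprr2 genes above the level floor 3 were lower and 2 higher. Sprr2h (5896 and 422) was 17.4-fold lower and Sprr2g (11595 and 4449.7) 3.25-fold lower, while Sprr2e (2224 and 6356) was 2.29-fold higher and Sprr2f (21342 and 53527) 2.01-fold higher. Sprr2d was within 2-fold at 40698 and 64181. The Sprr2 genes are near-identical copies, so their single values are uncertain.

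**Figure D2:**
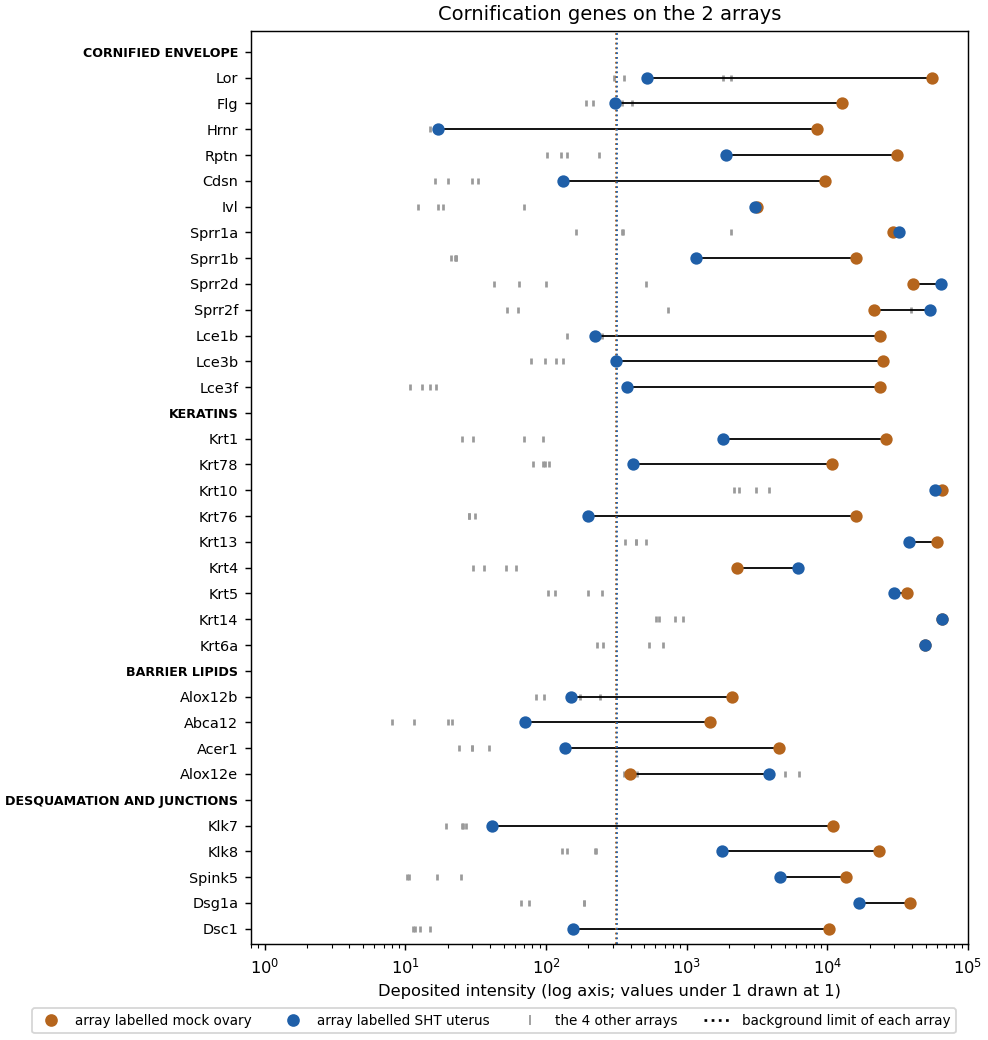
Deposited intensity (horizontal, log axis) of cornification genes on the array labelled mock ovary (brown) and the array labelled SHT uterus (blue), 1 array each; grey ticks are the 4 other arrays and dotted lines the background limit of each of the 2 arrays. Lor, Flg, Hrnr, Cdsn, Lce1b, Lce3b, Klk7 and Krt76 span a wide gap, while Ivl, Sprr1a, Krt10, Krt5, Krt14 and Krt6a lie close together on the 2 arrays.

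The keratins of the upper layers did not differ alike. Krt78, a type II keratin of differentiated squamous cells, read 10853 and 413 and was 32.8-fold lower, with a second probe at -4.96 on the log2 scale. Krt1, the keratin of the first layer above the basal cells in epidermis, read 25957 and 1813 and was 17.9-fold lower. Its partner Krt10 did not follow: it was at the top of the scale on the array labelled mock ovary (65580.5) and read 57851 on the other, so the difference between its readings may be too small. Krt9 (3655 and 171) was at least 14.3-fold lower, and Krt2, a keratin of the upper epidermis, was inside the background on both arrays (203 and 209).

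The keratins of internal linings also parted. Krt76, found in hard-wearing oral lining, read 16076 and 198 and was at least 63.0-fold lower. Krt13, a keratin of non-cornified squamous lining, read 60349 and 37781, within 2-fold, and its partner Krt4 read 2268 and 6167 and was 2.18-fold higher. Krt4 and Krt13 are partners in the same filaments. The keratins of basal and activated cells differed by -1.05 to 0.49 on the log2 scale: of 7 measured, 1 was lower and none higher. That 1 was Krt17 (35042 and 21081), 2.07-fold lower but within 2-fold with no centring, after quantile normalization and after the trend with level was removed. Krt16 (62254 and 39035) was just short of the limit at 1.99-fold lower. Krt6a read 49602 and 49141, and Krt15, of basal cells, 16387 and 28691.

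Hair and nail keratins were mostly dim. Of 16 on the array, 11 were inside the background on both arrays, and of 5 above the level floor 3 were lower. Krt71, of the inner root sheath of hair, read 2159.9 and 521. These genes mark haired skin, and the part of such skin in the cornification values was not tested.

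The enzymes that make and secrete the lipid seal of cornified cells were lower in 8 of 14 cases and higher in 1. With no centring 6 were lower and 2 higher, and with dim readings at the background limit 7 were lower and 1 higher. Alox12b, a lipoxygenase that oxidises barrier ceramides, read 2109 and 149 and was at least 8.26-fold lower, and Aloxe3, which acts next, was at least 4.38-fold lower. Abca12, the transporter that loads lipid into lamellar bodies, read 1457 and 70.7 and was at least 5.71-fold lower. Acer1, a ceramidase of the upper epidermis, read 4543 and 136 and was at least 17.8-fold lower. Cers3, which makes ceramides with very long chains, differed less, at 4559 and 2481 (2.29-fold lower, within 2-fold with no centring). The member that was higher after centring was another lipoxygenase, Alox12e, at 396 and 3820.2, 7.74-fold higher.

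The proteases and junction proteins of shedding followed the envelope. On the list of desquamation proteases and their inhibitors, 8 of 13 members above the level floor were lower and none higher. Klk7, a kallikrein that cuts the junctions between cornified cells, read 10966 and 41.0 and was at least 43.0-fold lower. Klk8 read 23423 and 1772 and was 16.5-fold lower, and Klk12 was at least 12.5-fold lower. Klk11 was within 2-fold on the probe used, but a probe brighter on both arrays (2034 and 1029) gave -1.30 on the log2 scale. Spink5, the inhibitor that restrains these proteases, read 13613 and 4579.6 and was 3.71-fold lower, so protease and inhibitor were lower together. Klk5, the protease that activates Klk7 in skin, was inside the background on both arrays.

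Junction proteins were lower in part. Cdsn, corneodesmosin, the glue of cornified cells, read 9695 and 133 and was at least 38.0-fold lower, and Dsc1, the desmocollin of the upper layers, read 10221 and 155 and was at least 40.1-fold lower. Dsg1a, desmoglein 1 alpha, was 2.87-fold lower at 38367 and 16651. Dsg3, the desmoglein of the lower layers, read 538 and 568. Jup, plakoglobin, present in all layers, was 2.91-fold lower and Pkp3, a plakophilin, 2.83-fold lower, about as much as Dsg1a. Of 11 desmosome genes 5 were lower and none higher.

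The transcription factors of squamous cells differed little. Of 14, 2 were lower and 1 higher. Trp63, the factor that maintains stratified epithelia, read 6690.2 and 8031, and Klf4, which drives barrier formation, 15040.0 and 10211. Grhl3, another barrier factor, read 2168 and 1803. The 2 that were lower were Hopx, a homeodomain protein of differentiating cells (14148 and 3572, 4.94-fold) and Ovol1, a repressor that stops division in the upper layers (2397 and 990.3, 3.02-fold), and the higher one was Gata3, a factor of squamous and urothelial cells (307 and 949.8, at least 2.44-fold).

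The promoters of 2 envelope genes are shown because both genes went from high intensity to the background or near it and both hold 1 match to the AP-1 motif TGANTCA, the binding sequence of Fos and Jun factors. The sequences are the 250 bases before the start site from RefSeq (build GRCm38.p6), Lor from chr3:92083143-92083392 on the minus strand and Flg from chr3:93273296-93273545 on the plus strand, written 5′ to 3′ along the gene, with the match in capitals.
Lor: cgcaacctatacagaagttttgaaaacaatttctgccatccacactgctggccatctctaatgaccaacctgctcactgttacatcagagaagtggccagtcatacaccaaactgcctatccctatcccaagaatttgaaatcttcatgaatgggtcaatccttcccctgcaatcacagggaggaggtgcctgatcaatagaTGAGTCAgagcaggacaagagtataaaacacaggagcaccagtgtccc
Flg: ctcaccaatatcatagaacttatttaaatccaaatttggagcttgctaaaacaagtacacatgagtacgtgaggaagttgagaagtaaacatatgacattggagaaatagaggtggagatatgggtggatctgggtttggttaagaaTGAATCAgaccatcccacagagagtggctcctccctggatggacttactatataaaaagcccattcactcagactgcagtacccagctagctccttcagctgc
The match lay 48 to 42 bases before the start of Lor and 103 to 97 bases before that of Flg. Of 25 lower cornified envelope genes with a promoter in the table, 8 (32%) held the motif on either strand. So did both higher envelope genes, Sprr2e and Sprr2f, and 2113 of all 27025 genes with a promoter (7.82%). Many of the lower envelope genes are related Lce and Sprr genes, not independent cases. The promoters of Hrnr, Cdsn and Klk7, also inside the background on the array labelled SHT uterus, held no AP-1 match. The search was chosen after the values were seen, and a match is a stretch of letters, not a binding site.

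Genes of simple and mucus-bearing epithelium were higher in part. Of 17 simple epithelium genes above the level floor 8 were higher and none lower, with a median of 0.34. Krt19, a keratin of simple epithelia, read 3922 and 13040.5 and was 2.67-fold higher. Epcam, an adhesion molecule of simple epithelia that cornified cells lack, read 4938 and 17082 and was 2.77-fold higher, with a second probe at 1.70 on the log2 scale. Cldn7, of tight junctions, read 962 and 5461 and was 4.55-fold higher, and Elf3, an epithelial transcription factor, read 1144 and 5968 and was 4.18-fold higher.

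Krt20, a keratin of gut and of urothelial surface cells, read 239 and 5146 and was at least 13.2-fold higher. Of the keratin pair that defines simple epithelia, Krt8 read -0.327 and 979, inside the background on the first array only, and was at least 2.51-fold higher, though its mean level was under the floor. Krt18 was inside the background on both arrays. Krt7 was bright on both, at 18333 and 26714. Prom1, a membrane protein of glandular cells, was 6.80-fold higher on its brightest probe, but its 4 probes differed by -1.99 to 2.77, and the mean over them was 0.72.

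Mucins and the machinery of mucus went both ways. Of 15 members above the level floor 4 were higher and 6 lower (4 and 5 with dim readings at the background limit), and 11 further members were inside the background on both arrays, Muc5ac and Muc2 among them. Of the membrane-bound mucins, Muc1 read 271 and 1867 and was at least 4.80-fold higher, and Muc4 read 95.5 and 1393 and was at least 3.58-fold higher. Muc13 was 2.16-fold higher, while Muc15, Muc16 and Muc20 were inside the background on both arrays. Pigr, the receptor that carries antibodies through the epithelium into mucus, read 203 and 2782 and was at least 7.15-fold higher.

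The genes of secreted mucus were lower or within 2-fold. Muc5b, a gel-forming mucin, read 766 and 225 and was at least 3.0-fold lower, with a log2 difference of -2.08 as read and -3.25 over the mean of its probes. Agr2, which folds mucins, and Spdef, the transcription factor of mucous cells, were at least 2.13-fold lower and at least 2.68-fold lower. Clca1, a secreted protein of goblet cells, read 17905 and 4919.6 and was 4.54-fold lower, although another array of the study, one with an ovary profile, reached 65723. Fcgbp, a protein of mucus gels, read 1239.6 and 1541. The list median was -0.24, and 0.077 with no centring.

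**Figure D3:**
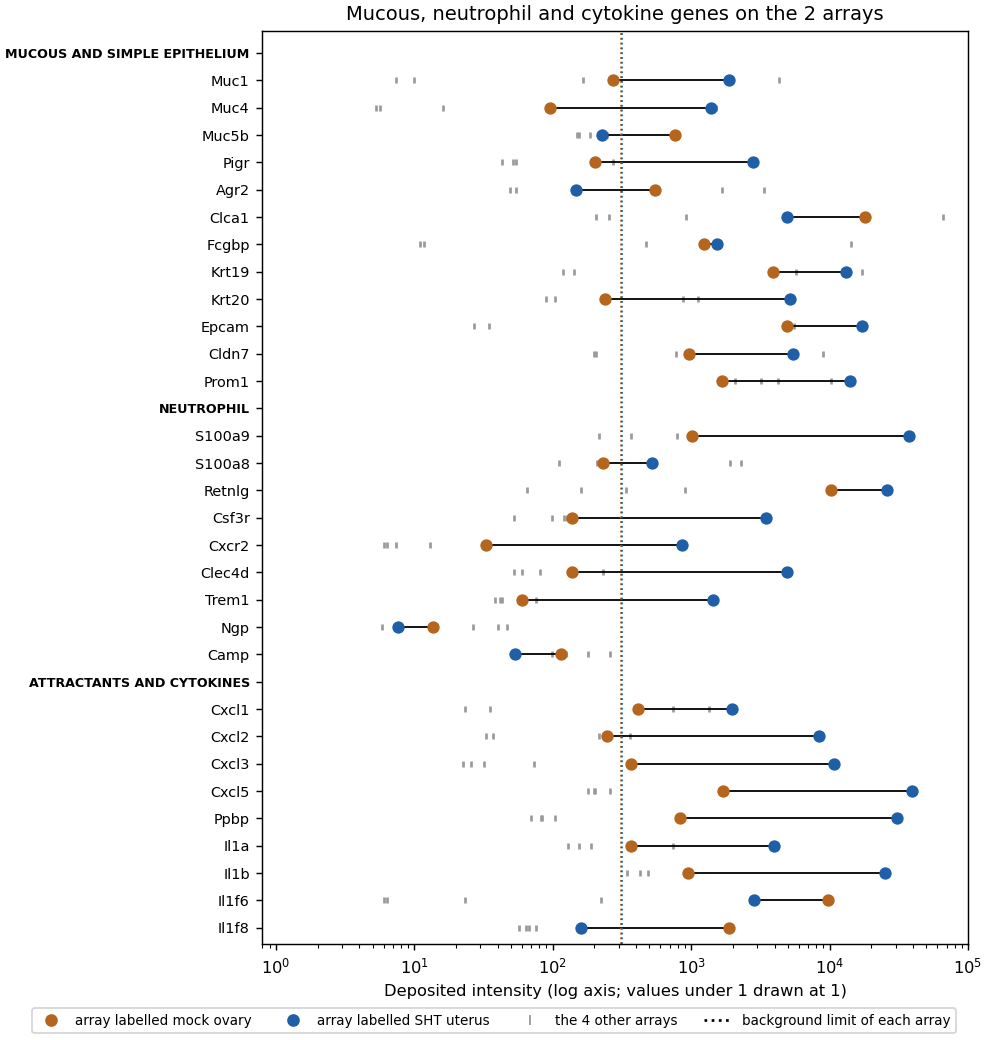
Deposited intensity (horizontal, log axis) of mucous, neutrophil and cytokine genes on the array labelled mock ovary (brown) and the array labelled SHT uterus (blue), 1 array each; grey ticks are the 4 other arrays and dotted lines the background limits. The blue point lies far to the right for S100a9, Csf3r, Cxcl2, Cxcl3, Cxcl5, Ppbp and Il1b and to the left for Il1f6 and Il1f8, and the granule genes Ngp and Camp lie left of the limits on both arrays.

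Neutrophil genes were higher and none lower. Of 20 members of the neutrophil list above the level floor 14 were higher, where 6.35% of all genes were, and the list median was 1.85, or 1.56 with dim readings at the background limit, which left 13 of the 14 past 2-fold. The summed intensity of the list went from 34869.9 to 118369 from the first array to the second, against 6869 to 12798 on the 4 other arrays. Several of these genes are also made by macrophages or keratinocytes.

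The receptors that mark mature neutrophils were among the higher genes. Csf3r, the receptor for granulocyte colony-stimulating factor, read 138 and 3486 and was at least 8.96-fold higher. Cxcr2, which senses the attractants below, read 33.0 and 861 and was at least 2.21-fold higher, though its mean level was under the floor. Fpr2, a receptor for formylated peptides, read 572 and 3798 and was 5.33-fold higher. The lectins Clec4d (139 and 4897) and Clec7a, or dectin-1 (218 and 3968), are both of myeloid cells; the former was at least 12.6-fold higher and the latter at least 10.2-fold higher. Trem1, an amplifier of myeloid activation, was at least 3.70-fold higher.

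Products of neutrophils were less uniform. S100a9 was 29.6-fold higher, but S100a8, its partner in the same protein complex, read 232 and 522 and was within 2-fold, or past it at 1.17 on the log2 scale with no centring. Retnlg, a neutrophil peptide, read 10316 and 26031, already high on the array labelled mock ovary, and was 2.02-fold higher. Hdc, the enzyme that makes histamine, read 66.9 and 5768 and was at least 14.8-fold higher, with one of the 4 other arrays at 6099. Of the interferon-related genes, Slfn4 was at least 7.67-fold higher, Ifitm6 at least 7.05-fold higher and Ifitm1 at least 14.5-fold higher. Of the genes of immature neutrophil granules, Ngp, Camp and Elane were inside the background on both arrays. Mpo, myeloperoxidase, read 716 and 681, above the 275 reached elsewhere, and Prtn3, proteinase 3, 225 and 408, inside the background on the first array.

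The attractants of neutrophils were higher as well, and 2 cytokines of keratinocytes lower. Of 15 attractants and inflammatory cytokines above the level floor 10 were higher and 2 lower, with a median of 2.12, and 9 of the 22 on the array were inside the background on both arrays. Ppbp, the precursor of the chemokine Cxcl7, read 825 and 30701 and was 29.8-fold higher. Cxcl5 read 1709.5 and 39504 and was 18.5-fold higher, Cxcl3 read 369.7 and 10816 and was 23.5-fold higher, and Cxcl2 read 246 and 8325 and was at least 21.4-fold higher. All of these bind Cxcr2. Cxcl1, of the same group, was 3.85-fold higher at 410.4 and 1970.0.

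The interleukin-1 family was divided. Il1b read 949.6 and 24970.0 and was 21.1-fold higher, and Il1a read 365 and 3935 and was 8.64-fold higher. Il1f6 and Il1f8, the interleukin-36 alpha and beta genes of stratified epithelia, were lower: Il1f6 read 9691 and 2841 (4.26-fold) and Il1f8 1868 and 159 (at least 7.32-fold). The 2 branches thus differed in opposite directions. Il6, Il17a and Tnf were inside the background on both arrays.

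The promoters of 3 attractants are shown because these genes were higher together and each held matches to the NF-kappaB motif, which is GGG and TTCC with any 3 bases between them. The sequences are the 250 bases before the start site from RefSeq (build GRCm38.p6), all on the plus strand and within 1 cluster, Cxcl1 from chr5:90890995-90891244, Cxcl2 from chr5:90903649-90903898 and Cxcl3 from chr5:90785851-90786100. Matches on either strand are in capitals, and a run of 11 capitals is a pair of matches, 1 on each strand, that overlap.
Cxcl1: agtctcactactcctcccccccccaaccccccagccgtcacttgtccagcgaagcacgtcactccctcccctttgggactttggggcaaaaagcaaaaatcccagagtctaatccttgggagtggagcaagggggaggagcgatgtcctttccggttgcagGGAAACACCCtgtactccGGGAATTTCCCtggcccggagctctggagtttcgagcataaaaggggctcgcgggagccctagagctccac
Cxcl2: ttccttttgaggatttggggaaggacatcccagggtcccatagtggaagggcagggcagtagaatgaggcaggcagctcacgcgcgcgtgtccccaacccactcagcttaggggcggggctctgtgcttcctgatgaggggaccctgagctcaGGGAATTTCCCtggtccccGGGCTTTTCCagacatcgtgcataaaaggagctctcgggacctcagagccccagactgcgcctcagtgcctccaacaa
Cxcl3: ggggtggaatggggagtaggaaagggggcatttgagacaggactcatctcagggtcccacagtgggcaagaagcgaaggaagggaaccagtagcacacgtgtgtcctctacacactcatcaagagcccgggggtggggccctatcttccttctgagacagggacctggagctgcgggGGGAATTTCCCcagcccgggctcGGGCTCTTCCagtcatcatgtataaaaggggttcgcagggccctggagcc
The overlapping pair began 71 bases before the start of Cxcl1, 97 before that of Cxcl2 and 73 before that of Cxcl3, and each promoter held 1 further match. Of 7 higher attractants with a promoter in the table, these 3 (42.9%) held the motif. So did 1434 of all 27025 genes with a promoter (5.31%), 2 of the 25 lower envelope genes (8%) and 1 of 11 higher neutrophil genes (9.09%). The 3 promoters are those of related neighbouring genes, not independent cases. Of the 2 other motifs searched, the C/EBP motif TTNNGNAA was held by 40.3% of all genes with a promoter and 57.1% of the 7 higher attractants. It was held by 72.7% of the 11 higher neutrophil genes, 52.0% of the 25 lower envelope genes and both higher envelope genes. The 1 lower gene of the attractant list with a promoter lacked it. The oestrogen response element (GGTCA and TGACC with any 3 bases between them) was held by 18 of all genes with a promoter and by none of these groups. The AP-1 motif was held by 2 of the 7 attractants, by the 1 lower gene of that list with a promoter in the table and by 1 of the 11 neutrophil genes.

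Secreted antimicrobial proteins were mixed. Of 8 above the level floor 4 were higher and 2 lower. Lcn2, which withholds iron from bacteria and is made by oestrogen-exposed uterine epithelium and by neutrophils, read 1817 and 27698 and was 12.2-fold higher, with one of the 4 other arrays at 29127. Ltf, lactoferrin, an oestrogen-induced uterine secretion and a neutrophil granule protein, read 22638 and 62708 and was 2.22-fold higher. Defb4, a beta-defensin of keratinocytes, was at least 2.21-fold lower, and Slpi, a protease inhibitor of mucosal fluid, was 2.40-fold lower, though within 2-fold with no centring.

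Other leukocytes differed less. Of 13 macrophage genes above the level floor 1 was higher and 1 lower, or 4 and 0 with no centring: Cd68 read 2242 and 3522, Csf1r, the receptor for macrophage growth factor, 2539 and 3394, and Adgre1, which encodes F4/80, 1127 and 2097. None of 4 genes of antigen presentation and none of 4 of B cells above the level floor passed 2-fold, except Itgax, of dendritic cells, with no centring (1.24 on the log2 scale). Ccl11, or eotaxin, which calls eosinophils into the uterine stroma, read 36393 and 13352 and was 3.40-fold lower, while the eosinophil granule genes Epx and Prg2 were inside the background on both arrays. Of 5 mast cell genes above the level floor 2 were higher and none lower (4 higher with no centring). With dim readings at the background limit 1 stayed past 2-fold, Cpa3, a mast cell protease, 2.82-fold higher at 586 and 2061.

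**Figure D4:**
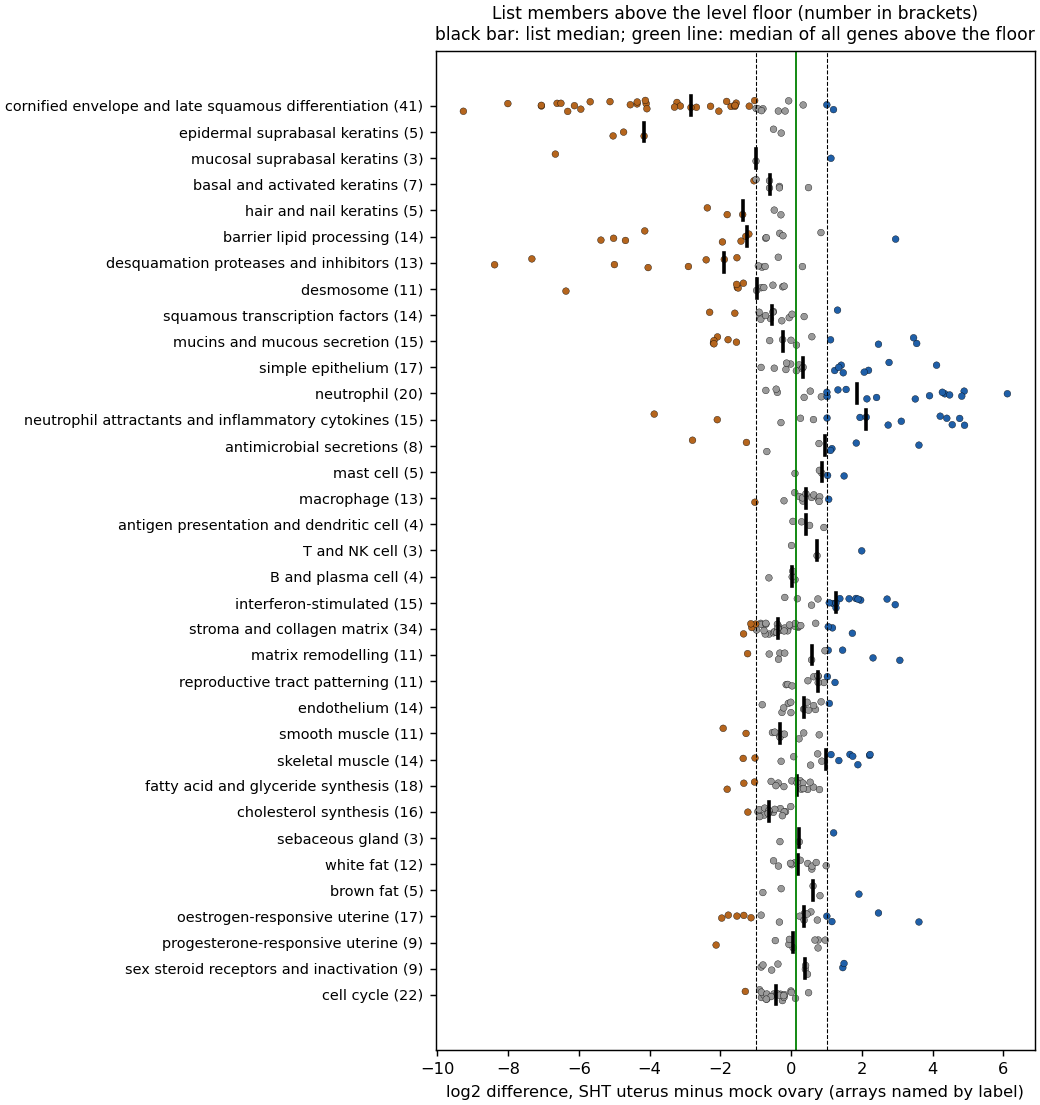
Each point is 1 gene above the level floor, placed by its log2 difference, SHT uterus minus mock ovary as labelled, in the list named at the left with its number of genes; blue points are at least 2-fold higher, brown points at least 2-fold lower and grey points in between. Black bars are list medians, which run from -4.16 for epidermal suprabasal keratins to 2.12 for neutrophil attractants, and the green line is the median of all genes (0.13).

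Most stromal genes were within 2-fold. Of 34 genes of stroma and collagen matrix above the level floor 3 were higher and 4 lower, or 4 and 1 with no centring, with a median of -0.39. Dcn, decorin, read 56602 and 54920.3, Lum, lumican, 17920.2 and 25889, Col3a1, of fibrillar collagen, 3870.4 and 2905, and Col1a2 19206 and 15515. All 4 were within 2-fold. The probe of Col1a1 was inside the background on both arrays and gives no information on its gene.

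The stromal genes past the limit were few. Sfrp1, a secreted inhibitor of Wnt signals, read 2158 and 8919.9 and was 3.31-fold higher. Sfrp2, of the same family, was 2.07-fold higher, and Pdgfrb, the growth factor receptor of pericytes and fibroblasts, was 2.25-fold higher at 1574 and 4410.2. Among the 4 lower genes were Col6a2, of the microfibrils around cells (13826 and 6783, 2.54-fold), Cd34, of vessels and fibroblasts (2.20-fold), and Thbs2, thrombospondin 2 (2.16-fold), both of the last within 2-fold with no centring. A second probe of Thbs2, of like brightness, gave -2.48 on the log2 scale, and the mean of both -1.80.

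Enzymes that remodel matrix were higher in 4 of 11 cases and lower in 1, where 6.35% and 4.98% of all genes were. Mmp3, stromelysin 1, read 278 and 2914 and was at least 7.48-fold higher, and Mmp11, stromelysin 3, read 3563 and 22086 and was 4.97-fold higher. Plat, tissue plasminogen activator, was 2.74-fold higher and Mmp2, a gelatinase, 2.07-fold higher. Timp1, an inhibitor of these proteases, went the other way at 5089 and 2702, 2.35-fold lower, or within 2-fold with no centring.

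Several smooth muscle genes were bright on both arrays, while 4 of the 14 measured, Cnn1, Tpm2, Kcnmb1 and Kcnma1, were inside the background on both. Acta2, smooth muscle actin, read 60854 and 59636, and Tagln, transgelin, 3049.5 and 2634. Of 11 genes above the level floor 2 were lower and none higher, with a median of -0.32; with no centring 1 was lower and 1 higher, with a median of 0.0019. The 2 were Oxtr, the oxytocin receptor of the myometrium (3482 and 1146, 3.79-fold), and Des, desmin (13588 and 7001, 2.42-fold, within 2-fold with no centring).

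Skeletal muscle genes were measured on both arrays. Of 14 above the level floor 7 were higher and 2 lower, where 6.35% and 4.98% of all genes were, with a median of 1.0 on the log2 scale. With dim readings at the background limit 7 were higher and 1 lower. The summed intensity of the 18 on the array went from 8525 to 17834, against 3281 to 9918 elsewhere. Tnnc2, a fast troponin, read 418 and 1924 and was 3.69-fold higher, and Tcap, a protein of the sarcomere edge, was at least 4.11-fold higher. Acta1, skeletal actin, read 1939.7 and 2541, within 2-fold. Mb, myoglobin, was 4.64-fold higher on its brighter probe, but its second probe gave -1.13 and the mean of both 0.54. Cox6a2, 1 of the 2 lower members, was within 2-fold with dim readings at the background limit (-0.66 on the log2 scale). The second probe of Cox6a2 went the other way at 2.37. Skeletal muscle genes thus differed along with the epithelial genes, and their part in those results was not tested.

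Genes of fatty acid synthesis were mostly within 2-fold. Of 18 above the level floor none was higher and 3 were lower, or 1 and 2 with no centring. Scd1, which desaturates fatty acids, read 26244 and 38964, and Srebf1, the regulator of the pathway, 1034 and 1782. The 3 were Agpat2, of glyceride synthesis (7141 and 2542, 3.51-fold), Me1, which supplies NADPH (3712 and 1830.0, 2.53-fold), and Dgat2, which makes triglyceride (7644 and 4655, 2.05-fold, within 2-fold with no centring). The probe of Fasn, fatty acid synthase, was inside the background on both arrays.

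Cholesterol synthesis lay slightly on the lower side after centring. All 16 genes above the level floor differed by -0.01 to -1.22, with a median of -0.63 against 0.13 for all genes, and 1 passed 2-fold. That 1 was Mvk, mevalonate kinase, at 1776 and 948 (2.34-fold, within 2-fold with no centring). Sqle, squalene epoxidase, a rate-controlling enzyme, read 6917 and 4652. With no centring 11 of the 16 lay below 0 and 5 above, none passed 2-fold, and the list median was -0.31. Insig1, which holds the pathway's regulator back, read 6725 and 7056.

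Fat tissue genes were on both arrays. Of 12 white fat genes above the level floor none passed 2-fold, though Cidec (1.31 on the log2 scale) and Car3 (1.03) did with no centring, and Adipoq, adiponectin, read 3070.4 and 5735. Ucp1, the uncoupling protein of brown fat, read 3459.9 and 6623, and Cox8b, a subunit of the respiratory chain in brown fat and muscle, was 3.77-fold higher. Of the 12 sebaceous gland genes 9 were inside the background on both arrays.

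**Figure D5:**
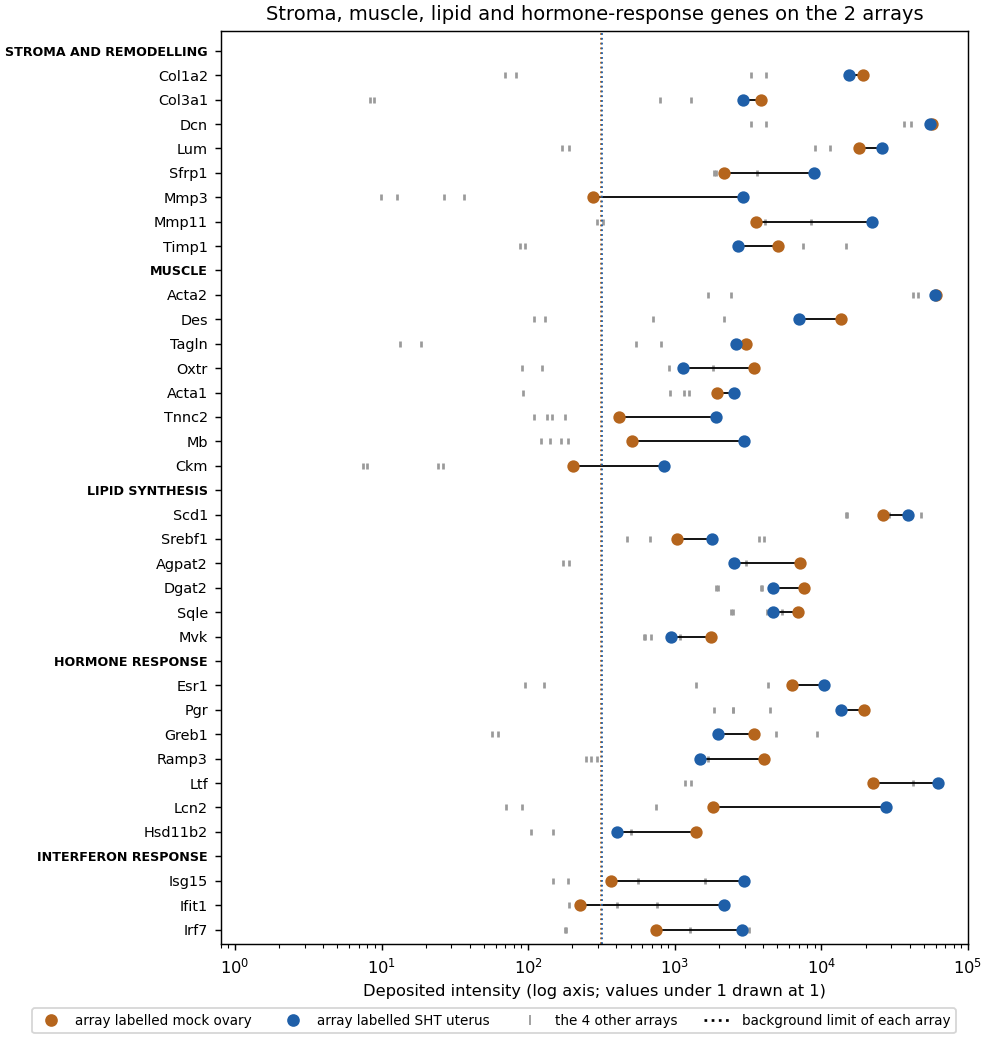
Deposited intensity (horizontal, log axis) of genes of stroma, muscle, lipid synthesis, hormone response and interferon response on the array labelled mock ovary (brown) and the array labelled SHT uterus (blue), 1 array each; grey ticks are the 4 other arrays and dotted lines the background limits. Dcn, Lum, Acta2 and Scd1 lie close together, Mmp3 and Isg15 lie to the right and Oxtr and Ramp3 to the left on the array labelled SHT uterus.

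Genes that respond to oestrogen in the uterus did not move one way. Of 17 above the level floor 4 were higher and 5 lower. Lower were Greb1, a direct target of the oestrogen receptor (3489.8 and 1983, 2.20-fold), Ramp3, a receptor partner (4062 and 1478, 3.43-fold), Inhbb, the activin beta B subunit (2.53-fold), Padi2, which converts arginine in proteins to citrulline (at least 3.22-fold), and Gjb2, a gap junction protein (44198 and 19048, 2.89-fold). Lcn2 and Ltf, already given, were among the higher. C3, a complement protein of uterine secretion, read 8412 and 17514, within 2-fold but past it with no centring, and Pgr, the progesterone receptor, 19510.1 and 13506.

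The receptors were within 2-fold where both readings cleared the background. Esr1, oestrogen receptor alpha, read 6286 and 10351. Of 9 progesterone-responsive genes above the level floor 1 was lower and none higher (3 higher with no centring), namely Hsd11b2, which inactivates glucocorticoids (1402 and 402, 4.35-fold). Of 22 cell cycle genes 1 was lower, Ube2c (830.2 and 422, 2.46-fold, within 2-fold with no centring), and none higher, with a median of -0.44. Mki67, a marker of dividing cells, read 3093 and 3250.3, and Top2a, which untangles replicated DNA, 1369 and 953.

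A few of the most different genes belonged to none of these groups. Syndig1, which encodes a synapse protein and is named Tmem90b in the array's annotation, read 758 and 28871 and was 30.5-fold higher, the largest measured increase among named genes whose readings both cleared the background. Prss22, a tryptase-like serine protease of epithelia, read 496 and 12810.1 and was 20.7-fold higher. Rn7sk, a small nuclear RNA that holds back transcription elongation, was at least 21.4-fold higher, with one of the 4 other arrays at 2831.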

How the data were processed

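Total RNA of 6 tissue samples was labelled with Cy5 and hybridised to 1 array each, per the labels' protocols. The authors deposited 1 linear intensity per probe and array, for 26423 probes; the submitters' processing notes name limma without a version or a role, and background correction and normalization were not stated in the sources at hand. The values reach a ceiling near 65580, which was treated as the top of the scale, and having 1 array a side limits the precision.

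Here the deposited intensity was raised to each array's 5th percentile of positive values, turned into log2 and centred on the array's median (Python 3.11.15, pandas 2.3.3, numpy 2.4.6, statsmodels 0.14.6). Of the probes 20377 carried 1 gene symbol and 6046 none, and symbols were brought up to date through RefSeq gene tables (18213 current, 2126 older and 38 kept as given). The probe with the highest mean log2 level over all 6 arrays stood for each of 17742 genes. Another probe of a gene could thus be brighter on the 2 arrays compared. Genes counted as higher or lower at 2-fold or more above a level floor, the median of the pair means over all probes. Background was the 95th percentile of 529 olfactory receptor genes on each array. The script was tested on simulated data. Promoters matched by symbol, and a gene with several promoters counted if any of them held the motif.

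The 2 arrays, the 46 gene lists and the alternatives were chosen with earlier results of these data known. Named genes were the 15 with the largest fold each way, with dim readings at the background limit and without placeholder symbols, the defining members of each list, and up to 5 further members per list with the largest fold. With 1 array a side no test was run. The 4 arrays with another profile served for levels, for the choice of probe and, in pairs of like profile, for the share of genes past 2-fold.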

Additional observations from a re-analysis of the deposited data

How the results depend on the processing

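No paired analysis was possible because each group held 1 array. With no centring 1607 genes were higher and 330 lower (83.0% of the calls higher), the median gene moved from 0.13 to 0.45, and each list kept its place relative to it by construction. Removing a lowess trend left 44.6% of the calls on the higher side. Without a level floor 1022 genes were higher and 931 lower, and the medians were -2.22 for the cornified envelope, 1.23 for simple epithelium and 0.82 for neutrophil attractants, whose inside-background members then count. With the level floor at the 75th percentile 275 genes were higher and 233 lower, and the medians were 1.01 for neutrophil, 4.40 for attractant and 0.0704 for skeletal muscle genes. At 3-fold 194 were higher and 237 lower. The level floor changes which genes count, and why a value moved between settings was not tested. Dim readings raised to the background limit left 9.07% of genes past 2-fold. Of 284 named genes above the floor, 12 lost and 23 gained the 2-fold call with no centring, 6 and 4 after quantile normalization, and 2 and 0 with the mean of probes. None of the results changed sign past 2-fold. Signal near background limits the folds of dim genes, and saturation those of Krt10, Krt14 and Dsp.

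Probes of 1 gene gave the only technical check. Of 801 genes with 2 or more probes above the background, 546 (68.2%) had all probes on the same side of 0, as had 113 of the 135 (83.7%) with a probe past 2-fold, and in 47 of those 135 (34.8%) every probe passed 2-fold the same way.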

Other observations

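Interferon-stimulated genes, which cells switch on against viruses, were higher in 11 of 15 cases above the level floor, where 6.35% of all genes were. None was lower, the median was 1.27, and 10 stayed past 2-fold with dim readings at the background limit. Isg15, a ubiquitin-like modifier, read 365 on the mock ovary array and 2980.0 on the SHT uterus array, as labelled, and was 6.54-fold higher. Ifit1, which binds viral RNA, was at least 5.53-fold higher, Rsad2, viperin, at least 3.17-fold higher, and Irf7, a regulator of interferon genes, 3.11-fold higher at 740.4 and 2873. Genes of antigen presentation, some of which also respond to interferon, did not pass 2-fold after centring: Cd74 read 2437 and 4358.

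Patterning genes of the reproductive tract were higher in 2 of 11 cases, where 6.35% of all genes were, with a median of 0.76. With dim readings at the background limit 1 was higher. With no centring 6 were, as were 1607 of all 10690 genes. Nr2f2, a nuclear receptor of the stroma, was 2.36-fold higher at 2094 and 6166, and Hoxa10 was higher by 0.92 on the log2 scale, under 2-fold. Among 14 endothelial genes 1 was higher, Aqp1, a water channel (5259 and 13846, 2.11-fold), and 3 were with no centring. Of the urothelium genes the summed intensity was 27298 and 43179.9, against 430.3 to 2580.4 on the 4 others, and most of both sums was Psca, a surface antigen of several epithelia (21133 and 31374). Upk1a, a plaque protein of the bladder surface, read 1602 and 2752 and Upk3a, of the same plaque, 1814 and 3176, while elsewhere Upk1a reached 942 and Upk1b 1679. None of the 5 urothelium genes passed 2-fold, except Upk1b with no centring (1.12 on the log2 scale).

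Of the genes that respond to handling of tissue, none of 11 immediate early and none of 5 heat shock genes passed 2-fold, except Egr1 with no centring (1.11 on the log2 scale). Egr1, an immediate early factor, read 5155 and 11125, and Hspa1a, a heat shock protein, 6683 and 5357. Mlana, of pigment cells, was at least 2.36-fold higher at 122 and 917. The 2 other pigment cell genes measured, Dct and Pmel, were inside the background on both arrays. Of 1539 probes with no gene symbol above the level floor, 51 were higher and 121 lower (11.2%).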
